A study of Mus musculus with 16 samples.

Results

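Transcript levels of 9 genes of the IL-6, IL-12, IL-10 and colony-stimulating factor families were examined in mouse bone-marrow-derived macrophages (BMDM). The genes were listed by symbol: Il6, Lif and Osm of the IL-6 family, Il12b and Il23a of the IL-12 family, Il10, and the colony-stimulating factors Csf1, Csf2 and Csf3. Of the 9 genes, 7 are among the 9614 genes of the table, and Il23a and Csf2 were not analysed here. The study asked how glucocorticoids restrain macrophage inflammation and whether this needs NELF, a complex that holds RNA polymerase near the start of genes. RNA-seq of polyA RNA covered 16 libraries of male C57BL/6 mice aged 8 weeks, 3 mice per genotype. Wild type (WT) mice were LysM-Cre:NELF-B wt/wt and knockouts (KO) were LysM-Cre:NELF-B fl/fl. Both genotypes thus carried the Cre recombinase, which is driven in myeloid cells by the lysozyme M promoter. BMDM were untreated (2 libraries per genotype, mice A and B), treated for 1 hr with 10 ng/ml of the bacterial cell wall component LPS (3 per genotype, mice A, B and C), or treated for 1 hr with 10 ng/ml LPS together with 100 nM of the synthetic glucocorticoid dexamethasone (Dex; 3 per genotype, the same mice A, B and C). A letter marks a mouse within its genotype, so WT mouse A and KO mouse A are different animals. Values of a group are given in the order of the letters, A and B for untreated BMDM and A, B and C for the others.

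The products of these genes are secreted signals. IL-6, LIF and OSM bind receptors that share the gp130 chain (encoded by Il6st) and act through JAK kinases and the transcription factor STAT3. The p40 protein encoded by Il12b is a subunit of both IL-12 and IL-23 and supports T cell responses, whereas IL-10 restrains macrophages and is the anti-inflammatory member of the group. M-CSF (Csf1), GM-CSF (Csf2) and G-CSF (Csf3) drive the growth and maturation of myeloid cells. In macrophages, LPS sensed by TLR4 switches on many of these genes through NF-kB and AP-1, and glucocorticoids, acting through the glucocorticoid receptor (GR), limit many pro-inflammatory ones.

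Values are log2 CPM, the log2 of counts per 1 M scaled reads of a library, as deposited. Low values rose in equal steps, which gave 25000000 to 49700000 reads per library on the genes of the table. Nelfb, the deleted gene, stood at 5.59 to 6.21 log2 CPM in the WT libraries and at 3.27 to 4.38 in the KO libraries, without overlap. Of 9 macrophage markers, 8 were in the table, among them Csf1r (11.36 to 11.93 log2 CPM) and Cd68 (10.03 to 10.89), while Lyz2 was lower at 4.30 to 6.33. No B cell, mast cell or basophil marker of the lists was in the table. Of 8 neutrophil markers only S100a8 was, at 5.46 to 41.5 CPM, and 4 of 5 stromal markers summed to 49.2 to 145 CPM. Of 6 T and NK cell markers only Cd4 was in the table, at 5.17 to 59.2 CPM, and of 6 dendritic cell markers Itgax and Ccr7, which summed to 6.64 to 25.1 CPM. The untreated library of WT mouse A stood apart, with r across genes of 0.830 to 0.909 with the other libraries. In bulk RNA a lower share of cells that express a gene and less of its RNA per cell cannot be told apart.

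In the GENCODE vM21 annotation of GRCm38 all 7 genes are protein-coding, and reads were counted over their exons. They are Il6 (ENSMUSG00000025746.11, chr5:30013114-30019981), Lif (ENSMUSG00000034394.14, chr11:4257557-4272514), Osm (ENSMUSG00000058755.3, chr11:4236420-4241026), Il12b (ENSMUSG00000004296.14, chr11:44400063-44414033), Il10 (ENSMUSG00000016529.5, chr1:131019845-131024974), Csf1 (ENSMUSG00000014599.10, chr3:107741048-107760469) and Csf3 (ENSMUSG00000038067.2, chr11:98701263-98703629). The 7 genes share LPS as an inducer, and the promoters of 4 of them are shown so that their letters can be set beside the changes. They are the bases just before the RefSeq transcription start on the coding strand in GRCm38.p6, ended where the GENCODE gene begins, for Il6 (chr5:30012864-30013113), Lif (chr11:4257318-4257556), Il12b (chr11:44399813-44400062) and Csf1 (chr3:107760470-107760719, minus strand). Capitals mark matches on either strand to an NF-kB core (GGNNNTTCC), an AP-1 site (TGANTCA), a C/EBP site (TTGCNNAA) or a GR core (TGTTCT).
Il6: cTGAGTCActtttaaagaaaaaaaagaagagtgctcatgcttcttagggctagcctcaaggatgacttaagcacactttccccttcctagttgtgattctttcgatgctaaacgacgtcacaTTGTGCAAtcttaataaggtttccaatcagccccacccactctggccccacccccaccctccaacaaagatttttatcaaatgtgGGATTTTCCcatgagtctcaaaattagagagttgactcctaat
Lif: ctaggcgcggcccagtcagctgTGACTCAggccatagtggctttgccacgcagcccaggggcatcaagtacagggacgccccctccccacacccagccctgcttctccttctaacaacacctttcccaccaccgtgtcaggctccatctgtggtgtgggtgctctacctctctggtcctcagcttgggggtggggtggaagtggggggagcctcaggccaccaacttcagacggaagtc
Il12b: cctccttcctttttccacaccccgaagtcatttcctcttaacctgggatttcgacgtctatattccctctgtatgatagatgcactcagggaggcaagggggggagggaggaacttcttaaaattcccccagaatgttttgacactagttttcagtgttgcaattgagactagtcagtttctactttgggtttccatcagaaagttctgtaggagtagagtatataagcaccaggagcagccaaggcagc
Csf1: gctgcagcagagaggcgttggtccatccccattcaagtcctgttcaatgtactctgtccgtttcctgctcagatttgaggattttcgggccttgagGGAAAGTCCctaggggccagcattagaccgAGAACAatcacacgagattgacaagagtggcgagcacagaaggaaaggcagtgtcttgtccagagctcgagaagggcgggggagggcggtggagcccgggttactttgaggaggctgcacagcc
In Il6 the AP-1 letters lay at -249 to -243 from the start, the C/EBP letters at -128 to -121 and the NF-kB letters at -43 to -35, and none of these matches overlapped another. Lif held 1 AP-1 match at -228 to -222. Csf1 held an NF-kB match at -154 to -146 and a GR core at -124 to -119, and Il12b held none of the searched motifs. A cyclic AMP element (TGACGTCA), a TATA box (TATAAA) and the palindrome of GR TGTTCT sites were searched as well and were found in none of the 4 (1.55%, 12.4% and 0.00913% of all promoters). Over 32851 promoter windows of 250 bases, 15.7% held the NF-kB core, 6.75% the AP-1 letters, 9.56% the C/EBP letters and 16.1% the GR core, so each match alone is common.

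LPS raised the level of all 7 genes in both genotypes within 1 hr. In limma's moderated test over all 16 libraries, with p-values adjusted by the Benjamini-Hochberg method over 9614 genes (FDR), 7 of 7 genes passed an FDR under 0.1 and 1.5-fold in WT, and 7 of 7 in KO BMDM. Of all genes, 6.01% were called higher with LPS in WT and 3.08% in KO. The median difference of the 7 genes was 4.01 in WT and 4.68 in KO on the log2 scale, against 0.02 and -0.01 over all genes. Il6 and Csf3 rose from a few reads per library, and Csf1 rose least. The stromal markers summed to 49.2 to 83.6 CPM in untreated and 64.4 to 111 in LPS-treated WT BMDM (81 to 89.7 and 99.7 to 125 in KO), and their part in the LPS differences was not tested.

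**Figure D1:**
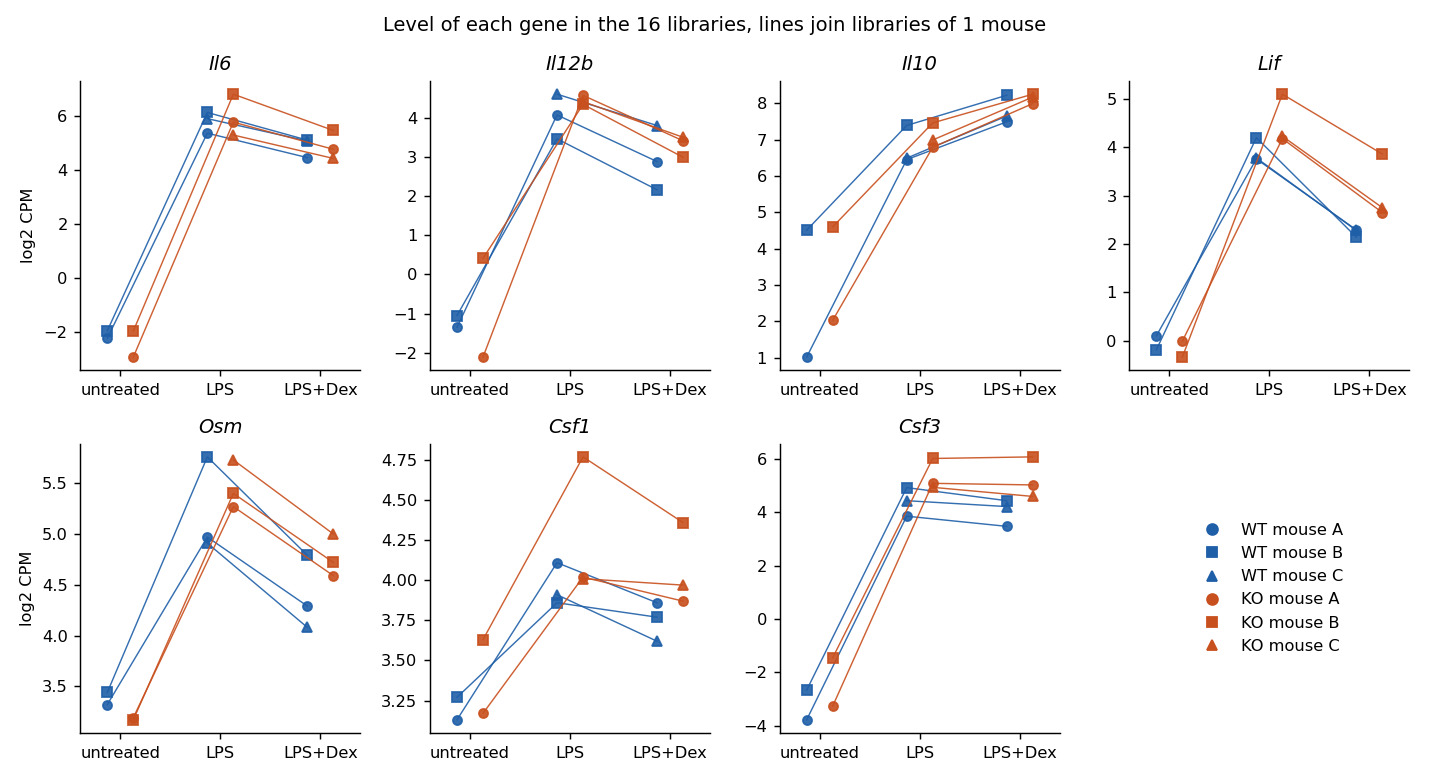
Level of each of the 7 genes in log2 CPM (y axis, scaled for each gene) in untreated, LPS and LPS + Dex libraries of WT (blue) and KO (orange) BMDM, with lines joining libraries of 1 mouse. Every LPS library lies above every untreated library for all 7 genes, and the share of all genes separated in this way was not counted. Il10 is the only gene whose lines all go on rising with Dex, from 6.45 to 7.46 with LPS to 7.49 to 8.25 with LPS + Dex.

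In the IL-6 family, Il6 encodes IL-6, the main inducer of the acute phase response. Its untreated levels were -2.25 and -1.97 log2 CPM in WT and -2.95 and -1.98 in KO. With LPS they were 5.38, 6.15 and 5.92 in WT and 5.79, 6.83 and 5.31 in KO. The groups lay far apart, and KO mouse B was the highest. The difference was 7.93 (standard error 0.44, limma adjusted p = 7.06e-08) in WT and 8.44 (0.44, 3.38e-08) in KO, the fourth and the second highest difference of all 9614 genes. Only 11 reads in all stood behind the untreated WT level and 12 behind the KO level, so that the ratio of LPS to untreated reads was 280 in WT (exact 95% interval 156 to 561) and 402 in KO (230 to 778), where the intervals cover counting error only.

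Lif encodes leukaemia inhibitory factor, and Osm oncostatin M, which shares receptor chains with it. The genes are neighbours on chromosome 11, with 16530 bases between them, and 4 of the 7 genes lie on that chromosome. Lif stood at 0.10 and -0.19 log2 CPM in untreated WT BMDM and at -0.01 and -0.34 in KO. With LPS its levels were 3.76, 4.20 and 3.78 in WT and 4.18, 5.10 and 4.23 in KO, again with KO mouse B highest. It rose by 3.96 in WT (standard error 0.35, limma adjusted p = 7.11e-06) and by 4.68 in KO (0.35, 1.27e-06). Osm was already expressed without LPS, at 3.32 and 3.44 in WT and 3.19 and 3.17 in KO. It reached 4.97, 5.76 and 4.91 in WT and 5.27, 5.40 and 5.73 in KO with LPS, a difference of 1.83 in WT and 2.29 in KO (standard error 0.26 in each, limma adjusted p = 0.000506 and 7.19e-05). Here the highest libraries were those of WT mouse B and KO mouse C.

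Il12b encodes the p40 subunit. Its untreated levels were -1.35 and -1.05 log2 CPM in WT and -2.11 and 0.41 in KO, the widest untreated spread of the genes after Il10. With LPS it stood at 4.07, 3.46 and 4.60 in WT and at 4.57, 4.34 and 4.41 in KO, above every untreated library. The difference was 5.24 in WT (standard error 0.60, limma adjusted p = 7.74e-05) and 5.29 in KO (0.60, 7.40e-05). The KO difference was 4.04 without the untreated library of KO mouse A and 6.55 without that of KO mouse B, and was called in both cases.

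Il10 encodes the anti-inflammatory cytokine of the group. Untreated mice differed widely, at 1.02 log2 CPM in WT mouse A, 4.51 in WT mouse B, 2.03 in KO mouse A and 4.60 in KO mouse B, so that mouse A was the lower of the pair in both genotypes. With LPS the levels came closer together, at 6.45, 7.39 and 6.49 in WT and 6.79, 7.46 and 6.99 in KO. The difference was 4.01 in WT (standard error 0.83, limma adjusted p = 0.00936) and 3.76 in KO (0.83, 0.0172). The size of the difference and its unpaired call rested on mouse A: without the untreated library of WT mouse A the WT difference was 2.27, and without that of KO mouse A the KO difference was 2.48, and neither was then called. Without the untreated library of mouse B the differences were 5.76 in WT and 5.05 in KO. The WT call was also lost when only the compared groups or only WT mice A and B were fitted. Il10 rose within both mice, by 5.43 in mouse A and 2.88 in mouse B of WT and by 4.76 and 2.86 in KO. With a term for each mouse over 16 libraries it was called in both genotypes (4.12 in WT, limma adjusted p = 0.00411, and 3.78 in KO, 0.00724).

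Among the colony-stimulating factors, Csf3, whose product drives neutrophil production, had 1 and 4 reads in the untreated WT libraries and 3 and 12 in the untreated KO libraries (mouse A first). Its LPS levels were 3.85, 4.92 and 4.43 log2 CPM in WT and 5.08, 6.01 and 4.93 in KO. All 3 KO libraries lay above all 3 WT libraries, the closest pair being 4.92 and 4.93. The LPS difference was 7.61 in WT (standard error 0.59, limma adjusted p = 1.82e-06) and 7.70 in KO (0.59, 1.50e-06), and the ratio of reads was 235 in WT (exact 95% interval 100 to 723) and 203 in KO (123 to 363). Without the untreated library of KO mouse A the KO difference was 6.79, and without that of KO mouse B it was 8.60, called in both cases. Csf1, which macrophages need for survival, changed least. It stood at 3.13 and 3.27 in untreated WT and 3.17 and 3.63 in untreated KO, and at 4.11, 3.86 and 3.91 in WT and 4.02, 4.77 and 4.01 in KO with LPS. The lowest LPS library was above the highest untreated one, but the difference was 0.76 in WT and 0.87 in KO (standard error 0.23 in each), with limma adjusted p = 0.0691 and 0.0578. The Csf1 call was lost when only the compared groups or only WT mice A and B were fitted, when recovered reads were tested, and without single libraries (WT untreated mouse A, WT LPS mouse A or C, KO untreated mouse A, KO LPS mouse B).

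**Figure D2:**
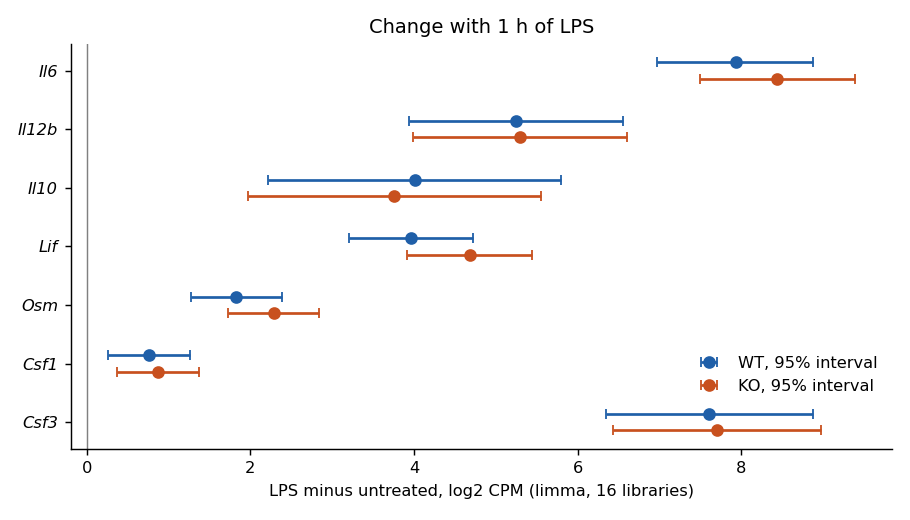
Difference between LPS and untreated BMDM in log2 CPM (x axis) for each gene in WT (blue) and KO (orange), with 95% intervals from limma over the 16 libraries. The intervals of WT and KO overlap for each gene, Il6 and Csf3 lie near 8, and Csf1 lies below 1.

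Levels per kilobase of exon allow the genes to be ordered. With LPS in WT BMDM, Il10 stood at 6.39 ± 0.53 log2 CPM per kb (SD, n = 3), with every library above those of the other 6 genes. Il6 (4.54 ± 0.40), Osm (4.03 ± 0.48) and Csf3 (3.90 ± 0.53) followed with overlapping libraries. Il12b (3.07 ± 0.57) overlapped with Csf3, and Lif (1.79 ± 0.25) and Csf1 (1.56 ± 0.13) were lowest and overlapped with each other. Without LPS the order was different, with Il10 (2.37 ± 2.47, n = 2) and Osm (2.19 ± 0.09) highest and Il6 (-3.39 ± 0.20) and Csf3 (-3.71 ± 0.78) lowest.

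The change with Dex was read within each mouse, since the LPS and LPS + Dex libraries came from the same animals. Il6, Il12b, Lif and Osm were lower with Dex in all 6 mice, and Il10 was higher in all 6. In WT, 6 of 7 genes were lower in all 3 mice (Il6, Il12b, Lif, Osm, Csf1 and Csf3) and 1 was higher, where 22.1% of all genes were lower in all 3 and 17% higher. In KO, 5 of 7 were lower in all 3 mice (the same without Csf3) and 1 higher, where 22.4% of all genes were lower and 21.4% higher. With mice as unpaired replicates over the 16 libraries, only Lif passed an FDR under 0.1 and 1.3-fold, as 1 of 7 genes lower in WT, where 0.322% of genes were called lower, and 1 of 7 in KO, where 0.447% were. None of the 7 was called higher by that fit, where 0.666% of genes were in WT and 0.832% in KO, and Il10 had an unadjusted limma p of 0.195 in WT and 0.179 in KO. With a term for each mouse in the 16-library fit, 3 of 7 genes (Il6, Lif and Osm) were called lower in each genotype (1.22% of all genes in WT, 1.45% in KO) and 0 higher (1.37% and 1.57%). Il10 had an unadjusted p of 0.103 in WT and 0.0913 in KO there, with a standard error of 0.55. The untreated libraries enter the spread of that fit, and the mouse terms were therefore also fitted to the 12 treated libraries alone (the paired fit), a choice made after seeing the data. There 4 of 7 genes (Il6, Il12b, Lif and Osm) were called lower in WT, where 2.17% of genes were, and the same 4 in KO, where 2.55% were. Il10 was called higher in both (1 of 7), where 2.38% of genes were in WT and 2.77% in KO. These 5 calls per genotype held when any single mouse was left out of the 12-library fit. The stromal markers summed to 94.4 to 122 CPM with LPS + Dex in WT and to 105 to 145 in KO, against the LPS sums given above, and their part in the Dex differences was not tested.

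**Figure D3:**
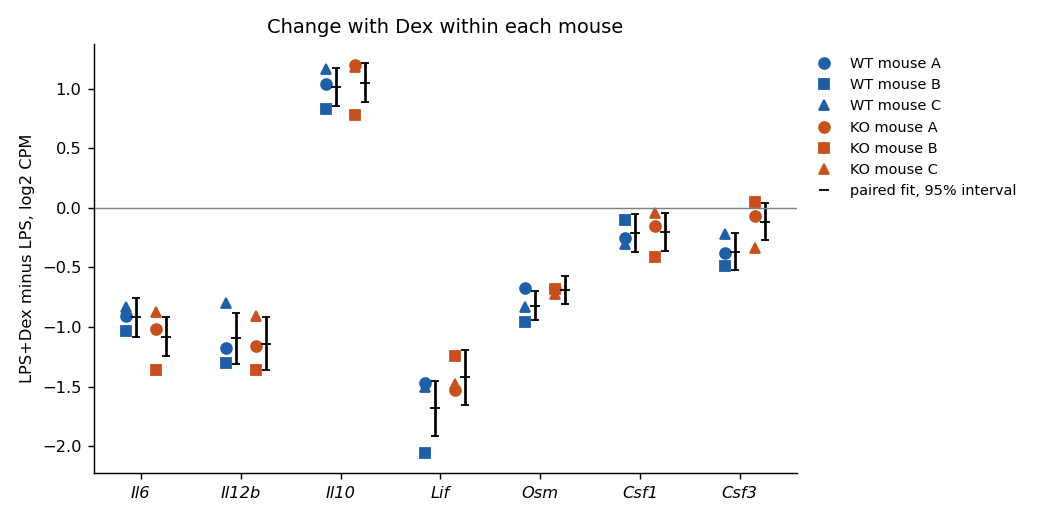
Difference between LPS + Dex and LPS in log2 CPM (y axis) within each WT (blue) and KO (orange) mouse, with the mean and 95% interval of the paired limma fit over 12 libraries in black. Il10 lies above 0 and Il6, Il12b, Lif and Osm below it in all 6 mice. Csf1 (-0.41 to -0.04) and Csf3 (-0.49 to 0.05) lie closer to 0.

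Lif fell most. With LPS + Dex its levels were 2.29, 2.14 and 2.28 log2 CPM in WT and 2.65, 3.86 and 2.75 in KO, below the LPS levels of the same genotype in every library. It kept 36%, 24% and 35.3% of its LPS level in WT and 34.6%, 42.3% and 35.8% in KO mice. The difference was -1.68 in WT (95% interval of the paired fit -1.91 to -1.45, limma adjusted p = 2.40e-07, and 0.0284 unpaired) and -1.42 in KO (-1.65 to -1.19, 8.89e-07, and 0.0611 unpaired). The unpaired call for Lif was lost without WT mouse B in either treatment or WT mouse A with LPS + Dex, and in KO without any single KO LPS or LPS + Dex library but that of mouse B with LPS + Dex.

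Il6 stood at 4.47, 5.12 and 5.09 log2 CPM in WT and 4.78, 5.48 and 4.44 in KO with LPS + Dex. Of the LPS level, 49% to 56.2% remained in the WT mice and 39% to 54.6% in the KO mice, with KO mouse B losing most. The paired difference was -0.92 in WT (95% interval -1.08 to -0.76, limma adjusted p = 2.02e-06) and -1.08 in KO (-1.24 to -0.92, 4.35e-07), whereas the unpaired adjusted p-values were 1 and 0.627. In WT the LPS + Dex libraries lay below the LPS libraries, and in KO the groups overlapped, since mouse B with both agents (5.48) was above mouse C with LPS alone (5.31).

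Osm, at 4.29, 4.79 and 4.08 log2 CPM in WT and 4.59, 4.72 and 5.00 in KO, fell within every mouse, by a narrow range in KO only. The level left was 51.3% to 62.7% in WT and 60.6% to 62.5% in KO. The paired difference was -0.82 in WT (-0.94 to -0.70, limma adjusted p = 3.93e-07) and -0.69 in KO (-0.81 to -0.57, 1.46e-06), with unpaired adjusted p-values of 0.252 and 0.465.

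Il12b stood at 2.88, 2.16 and 3.80 log2 CPM in WT and at 3.41, 2.99 and 3.50 in KO with LPS + Dex. WT mouse C with both agents was above WT mouse B with LPS alone (3.46), so the WT groups overlapped although each mouse fell. Of the LPS level, 40.6% to 57.6% remained in WT and 39% to 53.2% in KO. The paired difference was -1.09 in WT (-1.31 to -0.88, limma adjusted p = 6.49e-06) and -1.14 in KO (-1.36 to -0.92, 3.84e-06), and the unpaired adjusted p was 1 in both.

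Il10 went the other way, to 7.49, 8.22 and 7.65 log2 CPM in WT and 7.99, 8.25 and 8.17 in KO. All 6 LPS + Dex libraries lay above all 6 LPS libraries, the closest pair being 7.49 and 7.46. The share of all genes separated in this way was not counted. The level with Dex was 178% to 224% of the LPS level in WT mice and 172% to 230% in KO mice, with mouse B lowest in both. The paired difference was 1.01 in WT (0.85 to 1.17, limma adjusted p = 9.99e-07) and 1.05 in KO (0.89 to 1.21, 5.59e-07), and the unpaired adjusted p was 1 in both.

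The colony-stimulating factors were not called by any of the 3 fits. Csf3 stood at 3.47, 4.43 and 4.21 log2 CPM in WT and 5.02, 6.07 and 4.59 in KO with LPS + Dex. In WT the mean difference was -0.37 (paired 95% interval -0.52 to -0.21, limma adjusted p = 0.00408), which is under the 1.3-fold threshold, and 71.2% to 85.7% of the LPS level remained. Without WT mouse C it was -0.44 (adjusted p = 0.00646) and was called. In KO the difference was -0.12 (-0.27 to 0.04, adjusted p = 0.343), with mouse B at 104% of its LPS level. Csf1 stood at 3.86, 3.77 and 3.62 in WT and 3.87, 4.36 and 3.97 in KO, at 81.5% to 93.6% of the LPS level in WT and 75.2% to 97.3% in KO. Its paired difference was -0.21 in WT (-0.37 to -0.05, limma adjusted p = 0.103) and -0.20 in KO (-0.36 to -0.04, 0.0999), also under 1.3-fold.

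The KO and WT BMDM were then compared under each treatment, to ask whether loss of NELF-B moved these genes or their response to Dex. At an FDR under 0.05 and over 1.5-fold, limma over the 16 libraries called 0 of the 7 genes in untreated cells (0.0104% of all genes), 0 with LPS (0.146%) and 0 with LPS + Dex (0.114%). At an unadjusted p under 0.05 the counts were 0, 0 and 2 (Lif and Csf3), where 1464, 665 and 762 of all genes had such a p. Voom in limma on recovered reads also called 0 in each. With LPS, only Csf3 had all 3 KO libraries above all 3 WT libraries, where 5.91% of all genes did. With LPS + Dex, 3 of the 7 genes (Lif, Csf1 and Csf3) had them, where 8.93% of all genes did. The closest pair of WT and KO libraries was 3.86 and 3.87 for Csf1, 2.29 and 2.65 for Lif and 4.43 and 4.59 for Csf3.

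The KO minus WT difference of Csf3 was 0.94 with LPS (standard error 0.53, 95% interval -0.19 to 2.08, limma adjusted p = 0.948) and 1.19 with LPS + Dex (0.53, 0.05 to 2.33, 0.578). Mice of the same letter were set against each other because the labels print a shared date for both mice B and a shared name form for both mice C. Mice A were the pair that remained. Within letters, Csf3 was higher in KO by 1.23, 1.10 and 0.50 with LPS for mice A, B and C, by 1.55, 1.64 and 0.38 with LPS + Dex, and by 0.51 and 1.21 in untreated mice A and B. KO was thus the higher in all 8 comparisons, which are not independent because they come from the same 3 mice per genotype. Mice C differed least in the treated cells. With the letter as a block, limma called Csf3 with LPS + Dex (1.19, standard error 0.25, adjusted p = 0.0405), as 1 of 7 genes, where 1.38% of all genes were called. With LPS that fit gave Csf3 an unadjusted p of 0.00308 and an adjusted p of 0.0947 and called 0 of 7, where 0.915% of all genes were called. The letter fit had no term for the mouse, so libraries of the same mouse counted as independent in it.

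The KO minus WT difference of Lif was 0.59 with LPS (95% interval -0.09 to 1.27, limma adjusted p = 0.904) and 0.85 with LPS + Dex (0.17 to 1.53, 0.390). KO mouse B led this, since the mice B differed by 0.91 with LPS and 1.72 with LPS + Dex, mice A by 0.42 and 0.36 and mice C by 0.44 and 0.46. KO mouse B was also the highest LPS library of Il6, Il10, Csf1 and Csf3. It kept the most Nelfb of the KO mice, at 4.21 log2 CPM with LPS against 3.27 in mouse A and 3.48 in mouse C. The part of this in the differences was not tested. For Il6 the mean difference was 0.16 with LPS (-0.69 to 1.02) and 0.00 with LPS + Dex (-0.85 to 0.86), with mice C at -0.62 and -0.65 and mice A and B above 0. Il12b (0.40 and 0.35), Il10 (0.31 and 0.35), Osm (0.25 and 0.38) and Csf1 (0.30 and 0.32) had KO means above the WT means with LPS and with LPS + Dex, with limma 95% intervals that include 0. In untreated BMDM, Csf3 differed by 0.86 with the letter as a block (95% interval 0.19 to 1.53, limma adjusted p = 0.171, not called). Its untreated libraries held only 5 reads in WT and 15 in KO. Without the block the untreated differences ran from -0.35 (Il6) to 0.86 (Csf3), all with intervals that include 0. Without the untreated library of WT mouse B, Il10 was called there, with a difference of 2.30. S100a8, the neutrophil marker, stood at 13.9 to 36.3 CPM in KO and 5.46 to 20.5 in WT with LPS, and at 20.6 to 41.5 and 7.84 to 24.2 with LPS + Dex. The stromal markers summed to 99.7 to 125 CPM in KO and 64.4 to 111 in WT with LPS, with the LPS + Dex sums as given above. Their part in the genotype differences was not tested.

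**Figure D4:**
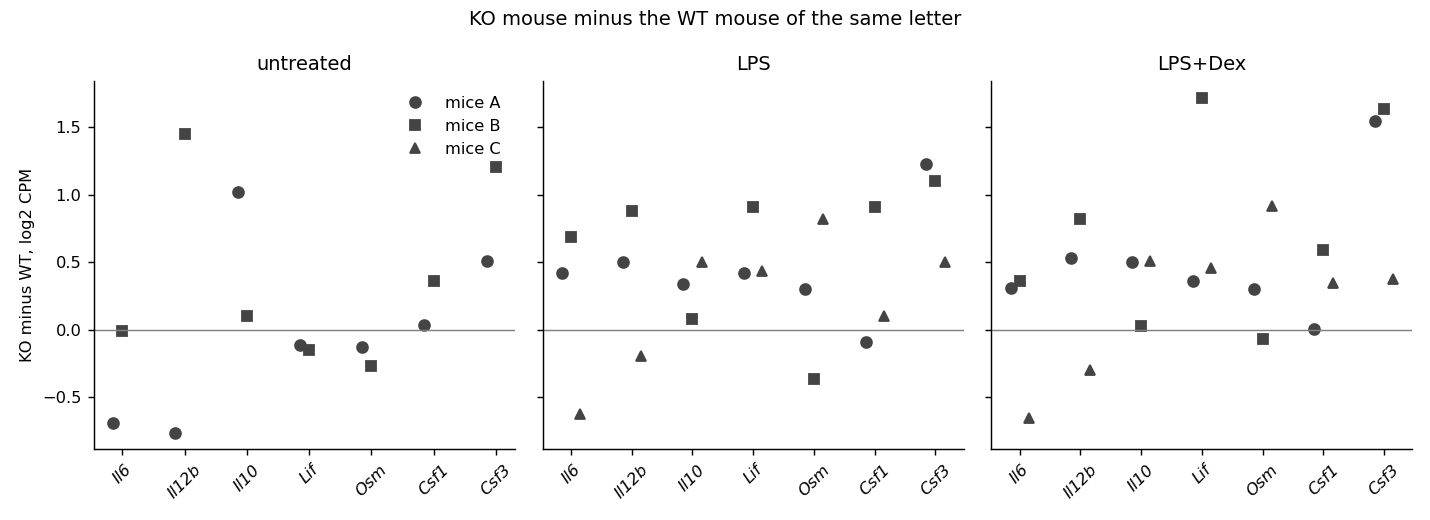
KO minus WT difference in log2 CPM (y axis) between the mice of the same letter for each gene in untreated, LPS and LPS + Dex BMDM, 1 point per pair of mice in each treatment. Csf3 lies above 0 at all 8 points, which come from the same 3 mice per genotype. Lif with LPS + Dex is led by mice B at 1.72, and Il6 has mice C below 0 in the treated cells.

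The responses themselves did not differ by genotype past the threshold. Limma called 0 of 7 genes for a difference in LPS response (0% of all genes) and 0 of 7 for a difference in Dex response (0% of all genes). At an unadjusted p under 0.05 there were 0 of 7 in both, where 221 and 0 of all genes had such a p. In the paired 12-library fit the Dex response of 0 of 7 genes differed, where 0.0208% of all genes were called. Csf3, the 1 gene of the 7 with an unadjusted p under 0.05 there (0.0309, adjusted 0.683), had a Dex change that was 0.25 less negative in KO (95% interval 0.03 to 0.47). Of all genes, 669 had an unadjusted p under 0.05 in that fit. For Il6 the Dex change in KO minus that in WT was -0.16 (-0.39 to 0.07), for Il12b -0.05 (-0.36 to 0.26), for Il10 0.04 (-0.19 to 0.27), for Lif 0.26 (-0.07 to 0.58), for Osm 0.13 (-0.04 to 0.30) and for Csf1 0.01 (-0.21 to 0.24). In the unpaired fit the intervals of the Dex response were wider (-2.22 to 2.31 for Il10), as were those of the LPS response (-0.36 to 1.79 for Lif, -2.78 to 2.28 for Il10). For Il6 the LPS change in KO minus that in WT was 0.51 unpaired (-0.83 to 1.86). With a term for each mouse over 16 libraries it was 0.87 (0.41 to 1.34, limma adjusted p = 0.414) and was not called. Mice C had no untreated library, so no LPS change within mouse C entered that value. Within mice A and B, Il6 rose by 7.63 and 8.11 in WT and by 8.74 and 8.81 in KO, from 4 to 8 reads per untreated library. Il6 was the 1 gene of the group with an unadjusted p under 0.05 in the fit with mouse terms over 16 libraries (0.00219). The count over all genes was not taken there.

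The rest of the pathway was read from lists of the same families. Of 17 further ligands and subunits, 3 were in the table. Clcf1, which encodes another gp130 ligand, rose with LPS by 2.08 in WT (limma adjusted p = 1.17e-05) and 2.38 in KO (3.15e-06). It fell with Dex by 0.54 and 0.43 in the paired fit (adjusted p = 0.000353 and 0.00179), a call made in that fit alone, since the adjusted p was 0.481 and 0.899 unpaired and 0.126 and 0.251 with mouse terms over 16 libraries. Il27, the p28 subunit of IL-27, rose with LPS by 4.38 in WT and 3.10 in KO (limma adjusted p = 0.000287 and 0.00546). Its Dex difference in the paired fit was -0.40 in KO (adjusted p = 0.0225, called) and -0.34 in WT (0.0676, under 1.3-fold), with a difference between genotypes of -0.06 (adjusted p = 0.953). The fits over 16 libraries called neither. Ebi3, its partner subunit, was expressed at 6.45 ± 0.21 log2 CPM (SD, n = 2) in untreated WT BMDM, and its LPS differences were -0.06 and 0.13 (adjusted p = 0.898 and 1).

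Of 14 receptor genes, 10 were in the table, and 1 of the 10 was called higher with LPS in each genotype (list median 0.11 in WT and 0.06 in KO), where 6.01% of all genes were in WT and 3.08% in KO, so that 1 of 10 is near the background. This was Il10ra, the ligand-binding chain of the IL-10 receptor, which rose by 0.61 in WT and 0.69 in KO (limma adjusted p = 0.0199 and 0.0105). With Dex, 3 of 10 were called in the paired fit, all higher and the same 3 in both genotypes: Il6ra, Il6st and Lifr (2.38% of all genes were called higher in WT and 2.77% in KO). With mouse terms over 16 libraries 2 of the 3 were called, Il6st (adjusted p = 0.0342 in WT and 0.0229 in KO) and Lifr (0.0125 and 0.0216), and Il6ra was not (0.135 and 0.102). The unpaired fit called none of the 10. These encode the IL-6 receptor, the shared gp130 chain and the LIF receptor. Il6ra differed by 0.76 in WT and 0.78 in KO (paired adjusted p = 6.41e-07 and 4.06e-07), Il6st by 0.78 and 0.83 (6.57e-05 and 3.17e-05), and Lifr by 0.86 and 0.74 (6.60e-05 and 0.000201). Unpaired adjusted p-values for the 3 genes ran from 0.256 to 0.562. In the paired fit the ligands Il6, Lif and Osm were thus lower and these receptor chains higher with Dex. Not all receptors went up: Il10ra differed by -0.26 in WT and -0.34 in KO (paired limma adjusted p = 6.62e-05 and 4.93e-06), which is under 1.3-fold and was not called.

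Of 18 signalling genes, 15 were in the table. In each genotype 4 of 15 were called higher with LPS (list median 0.32 in WT and 0.05 in KO), where 6.01% of all genes were in WT and 3.08% in KO. With mouse terms over 16 libraries Tyk2, a JAK family kinase gene, was called in WT as well (0.64, adjusted p = 0.0732, against 0.56 and 0.203 unpaired). In KO the Tyk2 difference in that fit was 0.06 and was not called. The difference in response between genotypes was -0.58 (adjusted p = 0.414, not called). The untreated WT libraries of Tyk2 spanned 4.48 to 5.84 log2 CPM. Socs3, an inhibitor of gp130 signalling, rose by 4.61 in WT and 5.09 in KO (limma adjusted p = 2.95e-10 and 9.96e-11), and the kinase gene Pim1 by 2.83 and 3.14 (1.45e-07 and 4.34e-08). Nfil3, which encodes a transcription factor, rose by 0.85 and 1.46 (0.0567 and 0.00238). Jak2 was the remaining call in WT (0.70, 0.0201, against 0.35 and 0.572 in KO), and Bcl3 in KO (0.60, 0.00842, against 0.52 and 0.0183 in WT, where the fold was under 1.5). With Dex, Nfil3 rose further, by 1.66 in WT and 1.62 in KO (unpaired adjusted p = 0.00210 and 0.00223). Pim1 (-0.80 and -0.74, adjusted p = 0.0291 and 0.0396) and Bcl3 (-0.56 and -0.76, 0.0287 and 0.00278), which encodes a nuclear regulator of NF-kB, were lower. Socs3 was called lower in both fits with mouse terms but not in the unpaired one (-0.53 and -0.52, adjusted p = 3.01e-05 and 3.12e-05 over 12 libraries, 0.0125 and 0.0118 over 16, and 0.128 and 0.124 unpaired). Stat3 had Dex differences of -0.07 and -0.01.

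**Figure D5:**
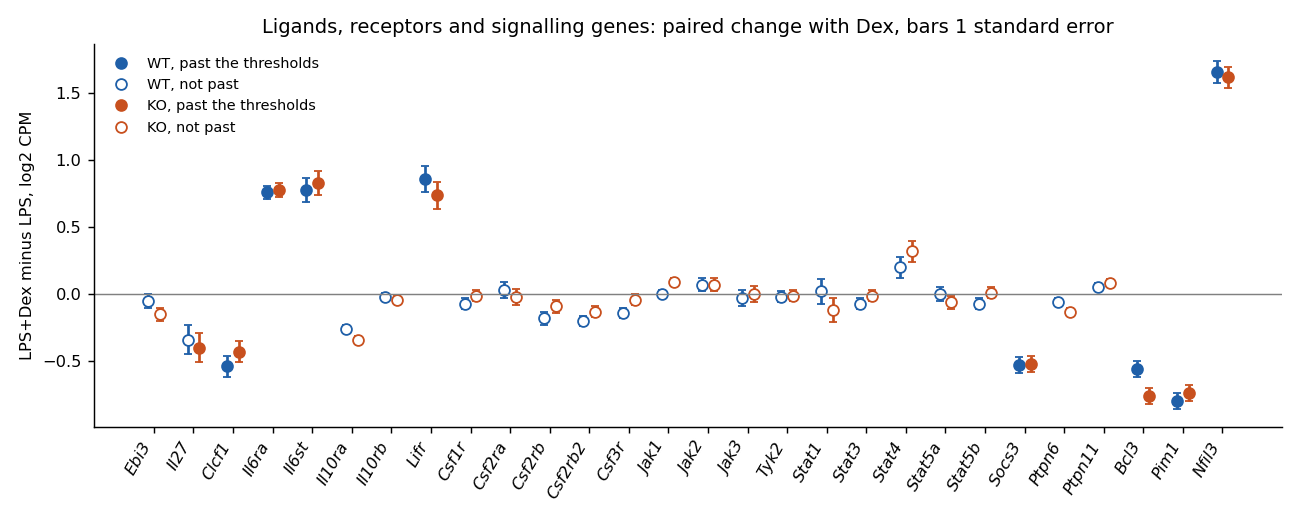
Difference between LPS + Dex and LPS in log2 CPM (y axis) from the paired limma fit over 12 libraries for 3 ligand, 10 receptor and 15 signalling genes in WT (blue) and KO (orange), with bars of 1 standard error and filled points past an FDR under 0.1 and 1.3-fold. Il6ra, Il6st, Lifr and Nfil3 lie above 0, and Clcf1, Socs3, Bcl3 and Pim1 below it, in both genotypes.

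Across the 16 libraries, the genes of the table whose levels were most like each member were found by Pearson's r, as a description, since all libraries share the LPS contrast. Il6 was most like Ifnb1 (r = 0.996), Ccl4 (0.992) and Maff (0.991), and Csf3 most like Egr1 (0.988), Dusp2 (0.985) and Cxcl2 (0.985). Il12b was closest to Tnf (0.971), Lif to Clcf1 (0.979), Osm to Cd83 (0.970), Il10 to Tiparp (0.954) and Csf1 to Uap1 (0.918). Among the members, r ran from 0.72 (Il10 and Lif) to 0.98 (Il6 and Csf3).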

How the data were processed

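RNA-seq of 16 BMDM libraries was deposited as log2 CPM for 9614 genes. Per the labels and the study's methods, the authors mapped paired reads to mm10 with CLC Genomics Workbench, counted unique exon reads, scaled them in edgeR by a weighted trimmed mean and deposited log2 CPM (submitters' processing notes also name CASAVA 1.8 and FastQC). The filter that left 9614 genes is not given in the sources used here. The deposited table also holds 18 columns of p-values and FDR of the authors' comparisons, which were not used. Because values are log2 CPM, the count test planned in the study was replaced by limma 3.58.1 (lmFit, eBayes with trend, two-sided) under R 4.3.3, with a mean for each of 6 groups and Benjamini-Hochberg adjustment over all genes. Thresholds were an FDR under 0.1 with 1.5-fold for LPS and 1.3-fold for Dex, an FDR under 0.05 with 1.5-fold for KO against WT, and an FDR under 0.1 for differences in response. Summaries used Python 3.11.15, pandas 2.3.3 and scipy 1.17.1.

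Reads were recovered from the steps of the log2 values: 100% of values under 3 CPM came out within 0.1 of a whole read. Depth was 25000000 to 49700000 reads, and 3 reads were 0.0653 to 0.136 CPM. Such limits cover counting error only. The unpaired fit was tested on simulated data, with calls at an FDR under 0.1 and no fold threshold. For Dex in WT, the calls held 140 of the 200 genes that had been given a 2-fold change, beside 12 others, out of 9614. With a 1.5-fold change they held 74 of 200, beside 12 others. The simulated libraries shared no mouse effect, so the test does not cover the fits with mouse terms.

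Animals were identified by the number in each label. Libraries of a mouse deviated together from their group means (14 pairs, r 0.19 to 0.94). No such r was computed between different mice, so these values cannot show that the pairing is right, and it rests on the labels. The members and lists were chosen with earlier results of these data known. Named were the 9 genes, Nelfb, the 3 genes most like each member (for some only the closest is printed), and list genes called in a comparison or on which a result turns. Alternatives were the mouse or letter as a block, unadjusted p, fits of only the compared groups or of WT mice A and B, other scaling, pseudocount and filter, and leaving out each library. The 12-library block and voom were chosen after seeing the data. Gene positions are GENCODE vM21 on GRCm38. RefSeq promoters were found for 5 of the 9 genes, of which Csf2 was not analysed here.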

Additional observations from a re-analysis of the deposited data

How the results depend on the processing

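The LPS calls were 7 of 7 genes in each genotype, 6 with voom on recovered reads and 5 to 7 when single libraries were left out. The Dex count changed most with the processing. Lower or higher with Dex in WT was 1 of 7 genes, 2 with unadjusted p-values, 0 with only WT mice A and B, 3 with the mouse as a replicate block and 5 with the block over 12 libraries, and 0 to 1 when single libraries were left out. In KO it was 1, 2 with only the compared groups (Il12b and Il10, in place of Lif), 3 and 5 with the blocks, and 0 to 1 without single libraries. By construction the block removes the differences between mice from the spread. It changed no other call of the 7 genes. KO against WT gave 0 untreated (0 to 1 without single libraries, Il10 at 2.30 without WT untreated mouse B) and 0 with LPS + Dex, against 2 with unadjusted p-values and 1 with the letter as a block. Where an untreated library was left out, the lone one was assumed to vary like the other groups. Log2(CPM + 1), centring on the median gene and a filter on mean log2 CPM above 1 changed no call. Values that were not called could change sign. With voom these were Il6 in KO minus WT with LPS + Dex (-0.06) and the difference in LPS response of Il12b (-0.03), Csf1 (-0.04) and Csf3 (-0.04). Over single libraries left out, the Dex difference in KO ran for Csf1 -0.35 to 0.05, Csf3 -0.54 to 0.22. KO minus WT ran, untreated, for Il6 -0.84 to 0.13, Il12b -0.91 to 1.61, Il10 -1.19 to 2.30, Lif -0.29 to 0.04, Csf1 -0.04 to 0.43, Csf3 -0.05 to 1.76; with LPS, for Il6 -0.27 to 0.50; and with LPS + Dex, for Il6 -0.29 to 0.23, Il12b -0.04 to 0.78. The difference in LPS response ran for Il12b -1.21 to 1.31, Il10 -2.00 to 1.5, Csf1 -0.14 to 0.34, Csf3 -0.82 to 0.99, and that in Dex response for Il6 -0.49 to 0.27, Il12b -0.44 to 0.38, Il10 -0.26 to 0.26, Lif -0.13 to 0.56, Osm -0.15 to 0.33, Csf1 -0.14 to 0.26, Csf3 -0.17 to 0.58. The cause was not tested. The limma 95% interval of KO minus WT with LPS spanned -0.19 to 2.08 for Csf3 and -1.29 to 1.91 for Il10, which limits what 3 mice per group can show, and the untreated levels of Il6 and Csf3 rest on few reads.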
